A study of Mus musculus with 35 samples.

Results

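The genes described here are 39 genes of DNA replication and S phase, listed by symbol. They encode the proteins that license and fire replication origins, copy the DNA, supply its building blocks, drive cells into S phase and pack the new strands into chromatin. All 39 of 39 listed symbols had a probe set of their own in the deposited table, out of 19937 genes with a single symbol. Pcna and Tk1 had 2 probe sets, and the brighter of each pair across the 35 samples was taken.

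The data were 35 one-colour Affymetrix arrays, each of RNA from 1 sample of sorted mouse mammary cells. The parous group had mated at an age of 42 days, then nursed for 21 days, and was left for 40 further days while the milk-producing gland regressed (involution). The nulliparous mice were virgins of the same age. Each sample pooled cells of the 4th mammary glands of 5 mice, sorted into 6 subpopulations. These were stromal cells, total epithelium, luminal cells without or with Sca1 on their surface, and basal cells with high (CD49f-high) or low (CD49f-low) CD49f. Sca1 and CD49f are surface proteins used to separate mammary epithelial subsets. Each of the 12 groups had 3 samples, numbered 1 to 3 in the labels, except that parous basal CD49f-high cells had 2 samples, numbered 2 and 3. Basal CD49f-high RNA came from 2000 cells and all other RNA from 10000 cells, so that the number of cells and the subpopulation cannot be told apart there. The mouse strain is not given in the sources used here, and the labels do not say whether samples with the same number came from the same mice.

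Before S phase, the origin recognition complex, Cdc6 and Cdt1 load the Mcm helicase onto DNA, and Cdc45 and the GINS complex then turn it into an active helicase. DNA polymerase alpha and primase start each new strand, the clamp loader places the ring-shaped clamp Pcna, and polymerases delta and epsilon extend the strands. Most of these genes are transcribed in late G1 and S phase under E2F factors, and the mammary epithelium is known to proliferate in puberty, in each oestrous cycle and in pregnancy.

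The sorted cells carried the markers of their labels. The mean log2 level of 10 luminal markers was 9.89 to 10.24 in the samples of both luminal subpopulations and 7.83 to 8.65 in those of both basal ones. Basal and myoepithelial markers averaged 9.64 to 10.32 in basal samples and 6.16 to 7.34 in luminal samples. Fibroblast markers averaged 10.30 to 10.63 in stromal samples and at most 7.76 in all other samples, and luminal markers ranged from 6.48 to 8.39 within the stromal samples. Replicates of a group correlated at Pearson's r of 0.963 to 0.991 across genes, and no pair of columns was identical. The number of arrays limits the precision.

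Levels below are log2 array values, and differences are log2 differences with the standard error (SE) of a fit over all 35 samples. A gene was called where its adjusted p was under 0.05 over all 19937 genes (limma, Benjamini-Hochberg). Levels of different genes are not compared, since each probe set has its own response. In 7 of the 39 genes (Orc1, Mcm10, Gins3, Pola2, Pole, Fen1 and Chaf1b) the group mean stayed under the median of all genes and samples in all 12 groups.

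The mean level of the 39 genes was higher in nulliparous than in parous epithelium in most samples, and the nulliparous samples spread widely. In nulliparous total epithelial cells it was 6.35, 6.61 and 6.83 in samples 1, 2 and 3, against 6.35, 6.27 and 6.31 in parous ones. In luminal Sca1-negative cells it was 6.35, 6.58 and 6.91 in nulliparous and 6.40, 6.29 and 6.30 in parous samples. In basal CD49f-high cells it was 6.52, 6.70 and 7.01 in the nulliparous samples and 6.25 and 6.31 in the parous ones. Nulliparous and parous samples did not overlap in total epithelial and basal CD49f-high cells, and overlapped in the other 4 subpopulations. In luminal Sca1-positive cells the mean was 6.23, 6.32 and 6.68 in nulliparous and 6.42, 6.21 and 6.19 in parous samples. In basal CD49f-low cells it was 6.42, 6.61 and 6.73 in nulliparous and 6.41, 6.37 and 6.43 in parous samples. Stromal cells lay low in both histories, at 6.17, 6.20 and 6.28 in nulliparous and 6.28, 6.21 and 6.22 in parous samples.

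**Figure D1:**
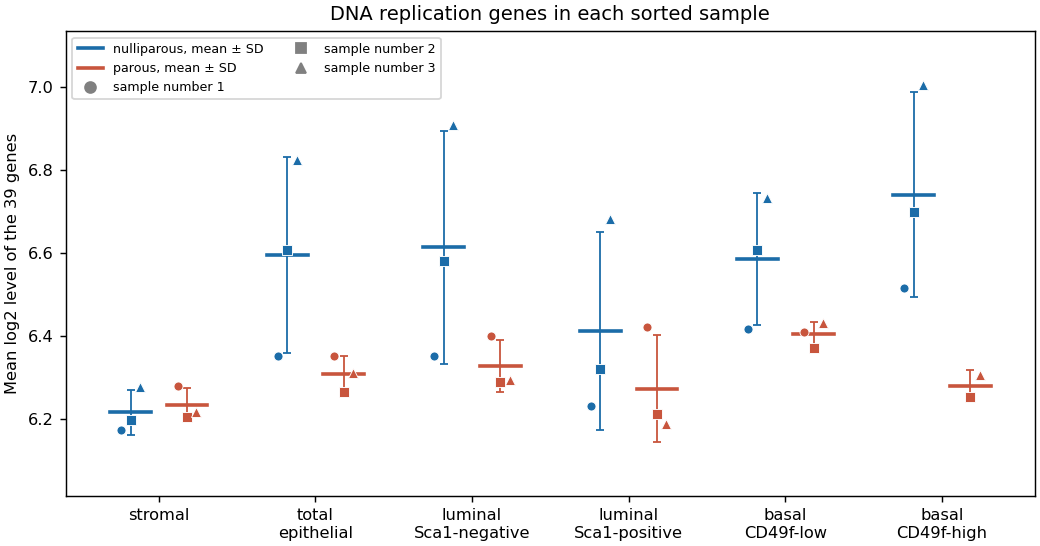
Mean log2 level of the 39 replication genes in each of the 35 samples, by subpopulation (x axis) and history (colour), with the group mean and SD as bars and the sample number as the marker shape. Nulliparous sample 3 is the highest of its group in all 6 subpopulations, and the parous samples lie between 6.19 and 6.43.

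In bulk samples such as these, fewer cells in S phase and less RNA of these genes per cell cannot be told apart. Sample number 3 was the highest and sample number 1 the lowest of the 3 nulliparous means in all 6 subpopulations. Among the single genes, 13 of 39 were highest in nulliparous sample 3 in all 5 epithelial subpopulations, against 2.31% of all genes. These were Orc1, Mcm2, Mcm4, Mcm5, Mcm6, Pola1, Prim1, Prim2, Rfc4, Fen1, Rrm1, Rrm2 and Tyms. Only Orc6, Mcm4 and Gins2 were lowest in nulliparous sample 1 in all 5, against 2.53% of all genes. The median difference of sample 3 minus sample 1 over the 39 genes was 0.52 in luminal Sca1-negative, 0.48 in basal CD49f-high, 0.47 in total epithelial, 0.43 in luminal Sca1-positive and 0.19 in basal CD49f-low cells. Over all genes the same median lay between -0.09 and 0.04. Among parous samples the median difference of sample 3 minus sample 1 ran from -0.22 to 0.07. The median SD within a group was 0.20 to 0.36 over the 39 genes in the nulliparous epithelial groups and 0.18 to 0.22 in the parous ones. Over all genes it was 0.14 to 0.18 in the former and 0.13 to 0.15 in the latter. Without nulliparous number 1, 2 or 3 in every subpopulation, 5, 15 and 12 of the 50 single-gene calls for the 39 genes were lost. Only some of these losses are named below.

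Over the mean of the 4 sorted epithelial subpopulations, parous cells had lower levels of 12 of the 39 genes and a higher level of 1. Of all genes, 6.2% were called in this comparison, 3.49% lower and 2.72% higher. Most of the 12 act at the fork or in the supply of nucleotides: Pola1, Prim1, Prim2, Pole, Rfc3 and Lig1 copy or join DNA, Rrm1, Rrm2 and Tyms make deoxynucleotides, Mcm3 and Mcm6 are helicase subunits, and Chaf1b helps to assemble nucleosomes. Pcna, the sliding clamp, was the gene that rose. The difference was below 0 in 32 of 39 genes, against 51% of all genes, with a median of -0.24 against -0.00 over all genes. The unadjusted p was under 0.05 in 22 of 39 genes, against 17.9% of all genes. In 23 of 39 genes the difference was below 0 in each of the 4 subpopulations, against 9.21% of all genes, and Pcna alone was above 0 in all 4, against 7.52% of all genes.

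The count changed with the nulliparous samples used. Of the 39 genes, 8 were called without nulliparous number 3 in every subpopulation, where 4.13% of all genes were. It was 9 without number 2, against 3.33%, and 18 without number 1, against 9.17%. Mcm6, Rrm1, Rrm2, Tyms and Chaf1b lost their calls without number 3 (adjusted p of 0.278, 0.115, 0.185, 0.194 and 0.0616), and Lig1 without number 2 (0.0686). These are not all the losses: those of Mcm6 without number 2 and of Pcna without number 1 or 2 are given below. A separate fit, which left out basal CD49f-high cells, averaged the other 3 sorted subpopulations per number and history and compared 3 means with 3. It called 0 of the 39 genes and 0.667% of all genes (limma), and the unadjusted p was under 0.05 for 14 of the 39, against 11.3% of all genes. Several differences in that fit were close to those over the 4 subpopulations, such as -0.49 for Pole, -0.58 for Rrm2, -0.42 for Rfc3 and -0.36 for Chaf1b, and others were smaller, such as -0.67 for Prim1 and -0.34 for Prim2. With the number as a block, all 4 subpopulations kept in, 16 of the 39 genes were called. The share of all genes called with the block is not given here.

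Within single subpopulations the calls among the 39 genes, by the probe set used for each, were all in basal CD49f-high cells, where 7 genes were lower in parous cells and none higher. Of all genes, 9.06% were called there, 5.05% lower and 4.01% higher. The 7 genes were Mcm3, Mcm5, Pola1, Prim1, Prim2, Lig1 and Rrm1, and in 19 of the 39 the unadjusted p was under 0.05, against 22% of all genes. No member was called in stroma, in total epithelium, in the Sca1-negative or Sca1-positive luminal cells, or in basal CD49f-low cells (limma), where 0.597%, 0.446%, 1%, 0.607% and 0.968% of all genes were. Unadjusted p values were under 0.05 for 1, 9, 11, 2 and 4 of the 39 genes there, against 9.16%, 7.26%, 11.4%, 6.63% and 10.5% of all genes. Differences below 0 were found for 31 genes in total epithelial, 30 in luminal Sca1-negative, 32 in luminal Sca1-positive, 30 in basal CD49f-low, 32 in basal CD49f-high and 18 in stromal cells, against 48.8%, 58.3%, 52.8%, 50%, 43.5% and 41.3% of all genes. With the number as a block, 12 genes were called in basal CD49f-high cells and 1 each in luminal Sca1-negative and basal CD49f-low cells, with no share of all genes given here. Without the block, the median of the 39 differences was -0.19 in total epithelium, -0.23 in luminal Sca1-negative, -0.10 in luminal Sca1-positive, -0.15 in basal CD49f-low, -0.34 in basal CD49f-high and 0.00 in stromal cells.

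Parous and nulliparous values did not overlap, with parous lower, for 18 of 39 genes in basal CD49f-high cells, against 11.8% of all genes. The count was 10 in total epithelial cells against 7.78%, 10 in luminal Sca1-negative cells against 10.4% and 7 in basal CD49f-low cells against 7.56%. It was 3 in luminal Sca1-positive cells against 6.66% and 2 in stromal cells against 6.33%, where Mcm3 and Tyms were the 2 genes. In basal CD49f-high cells the 7 calls became 4 without nulliparous sample 3 of that subpopulation and 11 without its nulliparous sample 1. A fit of basal CD49f-high samples alone, with 3 samples against 2, called 0 of all 19937 genes.

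**Figure D2:**
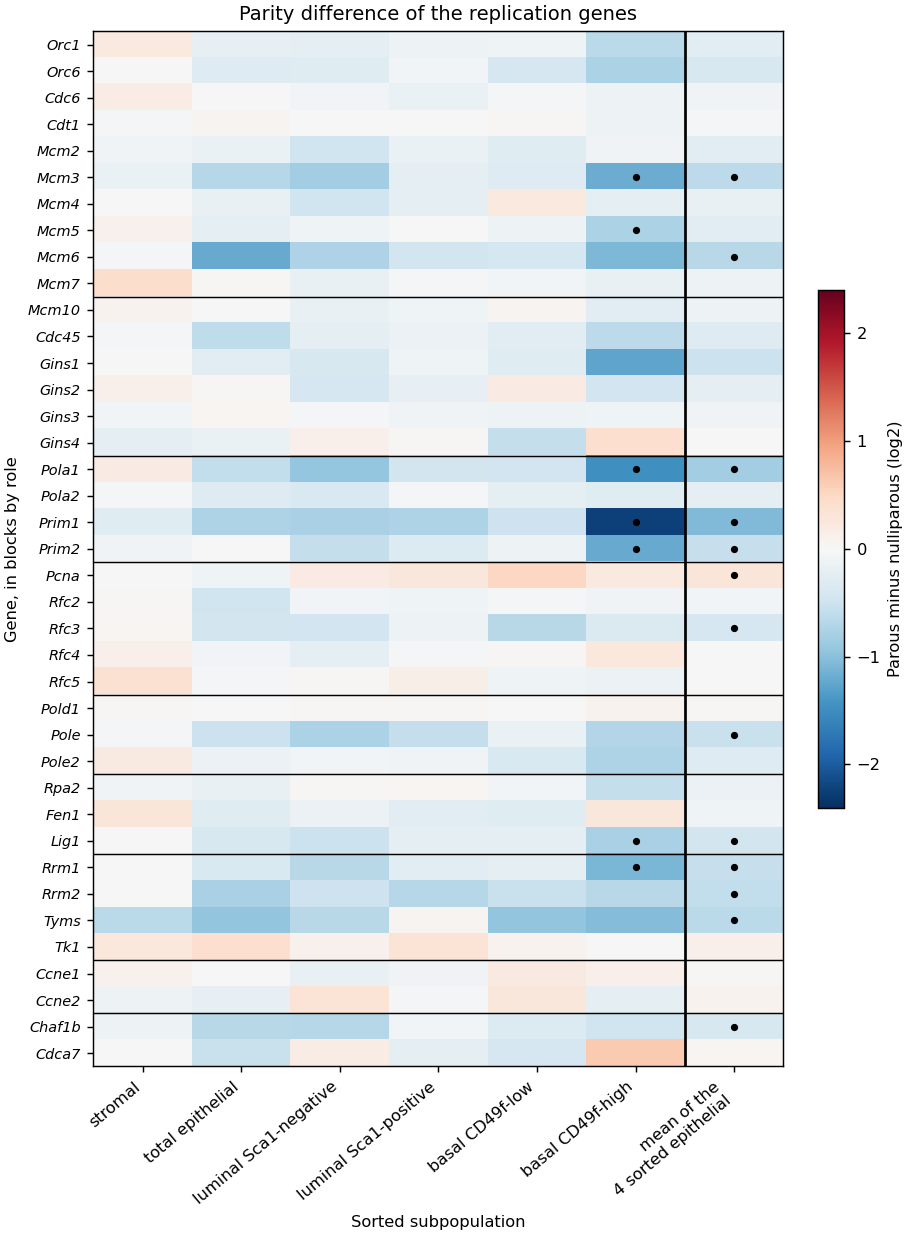
Log2 difference, parous minus nulliparous, of the 39 genes (rows, in blocks by role) in 6 subpopulations and in the mean of the 4 sorted epithelial ones (columns). Blue is lower and red higher in parous cells, and a dot marks an adjusted p under 0.05: 7 genes in basal CD49f-high cells and 13 in the mean.

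Polymerase alpha-primase, the enzyme that lays down the RNA-DNA primer of every new strand, held the 2 largest falls over the 4 subpopulations and in basal CD49f-high cells, those of Prim1 and Pola1. Of its 4 subunits, Prim1, Pola1 and Prim2 fell in basal CD49f-high cells and over the 4 subpopulations. Pola2, the regulatory subunit, had -0.24 ± 0.09 (SE) over the 4 subpopulations and did not pass, with an adjusted p of 0.135. Over the 4 genes, the median was -1.35 in basal CD49f-high cells and -0.69 in the mean of 4.

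Prim1, the catalytic primase subunit, had levels of 6.81, 7.94 and 8.24 in nulliparous basal CD49f-high samples 1, 2 and 3 and of 5.15 and 5.68 in the parous samples. All nulliparous values lay above all parous ones, and Prim1 was 4.76-fold lower in parous cells (log2 difference -2.25 ± 0.46 SE, adjusted p = 0.00196). Prim1 in luminal Sca1-negative cells was 6.80, 7.65 and 8.07 in nulliparous and 6.76, 6.83 and 6.60 in parous samples, so that nulliparous sample 1 lay among the parous samples. In luminal Sca1-positive cells, Prim1 was 6.39, 6.79 and 7.54 in nulliparous and 6.89, 5.75 and 5.89 in parous samples. Prim1 in basal CD49f-low cells was 5.85, 6.94 and 7.17 in nulliparous and 6.09, 6.68 and 5.71 in parous samples, and the groups overlapped in both of these subpopulations. Over the 4 subpopulations the difference in Prim1 was -1.06 ± 0.21 (SE, adjusted p = 0.00176), or 2.09-fold lower in parous cells. In total epithelial cells, Prim1 was 6.74, 6.70 and 7.55 in nulliparous and 6.56, 6.34 and 5.86 in parous samples, without overlap, and the difference of -0.74 was not called.

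Pola1, the catalytic polymerase subunit, had levels of 7.36, 7.58 and 8.26 in nulliparous and 6.36 and 6.15 in parous basal CD49f-high samples. It was 2.79-fold lower in parous cells there (-1.48 ± 0.29 SE, adjusted p = 0.00148). In luminal Sca1-negative cells, Pola1 was 7.17, 7.69 and 7.96 in nulliparous and 7.03, 6.35 and 6.63 in parous samples. The groups did not overlap, and the difference of -0.93 was not called in that subpopulation alone. Over the 4 subpopulations Pola1 was 1.78-fold lower in parous cells (-0.83 ± 0.14 SE, adjusted p = 0.000199). Stromal cells gave 7.21, 7.25 and 7.07 in nulliparous and 7.53, 7.25 and 7.36 in parous samples, a difference in Pola1 of 0.20 that was not called.

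Prim2, the large primase subunit, was 6.54, 6.37 and 6.83 in nulliparous and 5.28 and 5.45 in parous basal CD49f-high samples. The fall was 2.33-fold (-1.22 ± 0.22 SE, adjusted p = 0.000662), and the 2 parous values were the lowest of Prim2 in all 35 samples. In basal CD49f-low cells, Prim2 was 6.24, 6.20 and 6.41 in nulliparous and 6.41, 6.05 and 5.99 in parous samples. The parity difference of Prim2 was 1.09 log2 units lower in basal CD49f-high than in basal CD49f-low cells (-1.09 ± 0.30 SE, adjusted p = 0.0485). Prim2 was the 1 member called in this test of a difference between parity effects, which called 2.27% of all genes, and its call was lost without any of 9 of the 11 samples (adjusted p up to 0.116).

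The falls in Prim1, Pola1, Prim2 and Mcm3 in basal CD49f-high cells and over the 4 subpopulations kept their calls when any single sample was left out. Each such fit still held the other samples of the same number. In the fit of 3 means with 3, without basal CD49f-high cells, these genes were not called. Their adjusted p there was 0.373, 0.227, 0.331 and 0.179 (limma). A fit of basal CD49f-high samples alone called no gene. Over the 6 subpopulations together, 0 of the 39 genes differed in parity effect by the moderated F test of limma, against 2.8% of all genes, and 5 had an unadjusted p under 0.05, where 15.1% of all genes did. For parity in luminal Sca1-negative against Sca1-positive cells the test also called 0 of the 39, against 0.0953% of all genes, and 1 had an unadjusted p under 0.05, where 5.89% of all genes did. Calls seen in basal CD49f-high cells and not elsewhere are therefore not shown to be particular to them. Prim2 was called only against basal CD49f-low cells, and its adjusted p in the test over the 6 subpopulations was 0.0861.

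**Figure D3:**
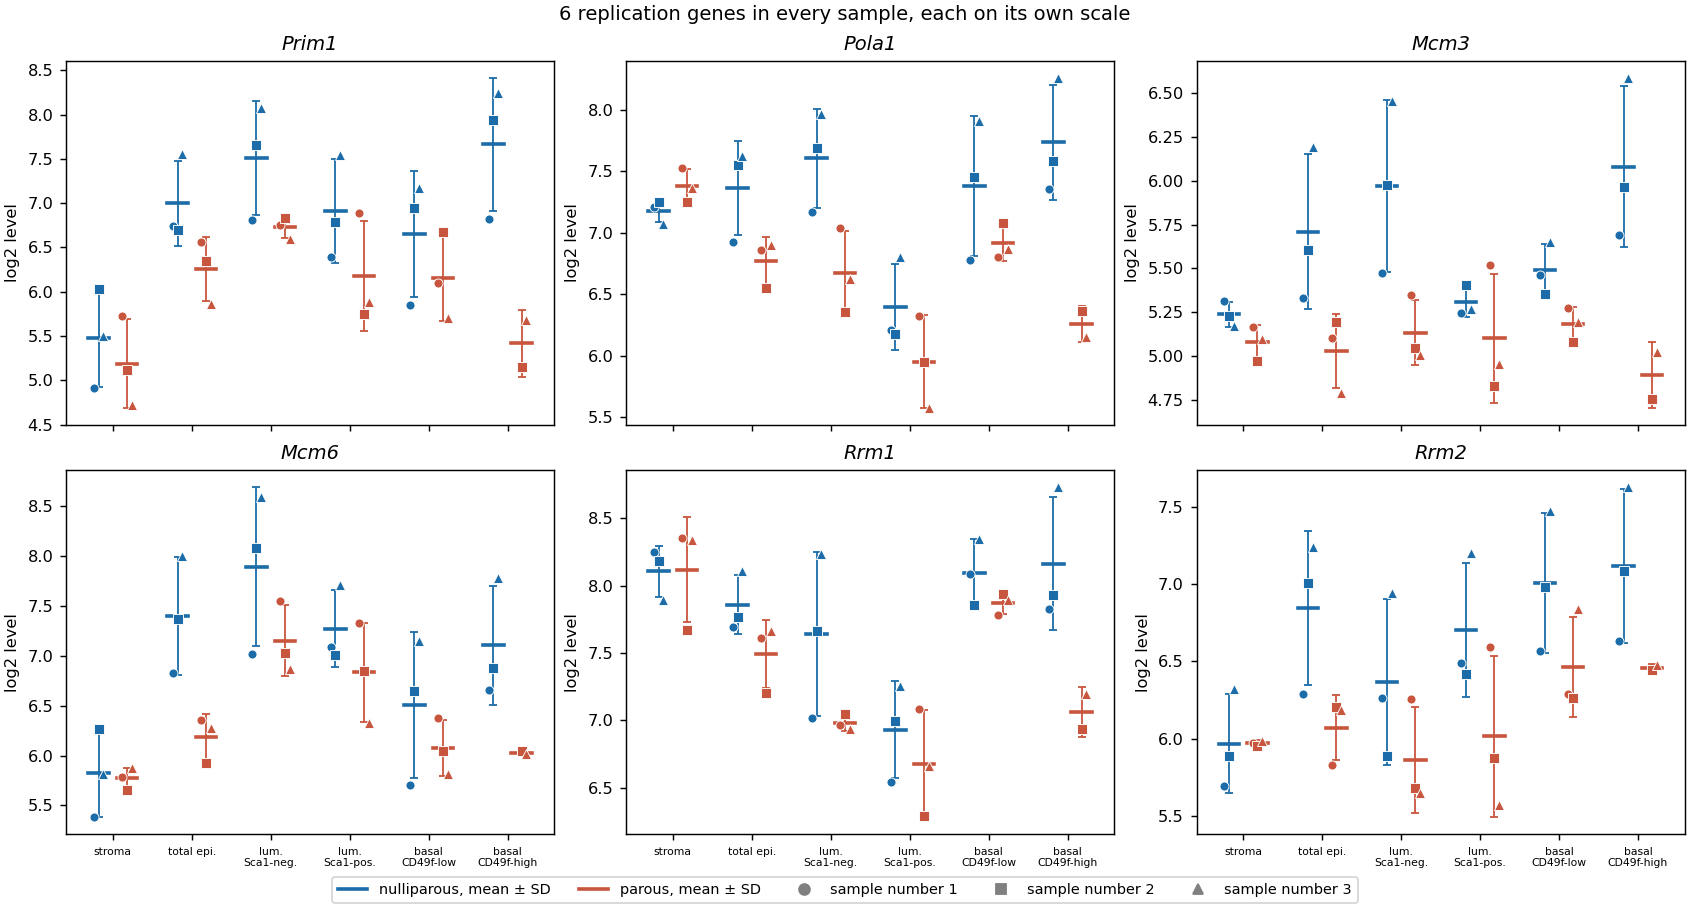
Log2 levels of Prim1, Pola1, Mcm3, Mcm6, Rrm1 and Rrm2 in every sample (y axis, a scale of its own per gene) by subpopulation and history, with the group mean and SD and the sample number as the marker shape. In basal CD49f-high cells the 2 parous values lie below the 3 nulliparous ones for all 6 genes, and nulliparous sample 3 is the highest there.

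The bases before the RefSeq transcription start are shown for genes on each side of the pattern (RefSeq, GRCm38.p6). Prim1 and Pola1 had the largest falls over the 4 subpopulations, Mcm6 fell as well, and Cdca7 and Ccne1 had differences of 0.05 and 0.02 and were not called. Capitals mark the E2F motifs TTTCGCGC and TTTGGCGC and the NF-Y motif CCAAT on either strand. Each run holds the 250 bases before the start, 5′ to 3′ on the gene's strand, at chr10:128014965-128015214 (plus strand) for Prim1, chrX:93632156-93632405 (minus) for Pola1, chr1:128359706-128359955 (minus) for Mcm6, chr2:72475969-72476218 (plus) for Cdca7 and chr7:38107491-38107740 (minus) for Ccne1.
Prim1: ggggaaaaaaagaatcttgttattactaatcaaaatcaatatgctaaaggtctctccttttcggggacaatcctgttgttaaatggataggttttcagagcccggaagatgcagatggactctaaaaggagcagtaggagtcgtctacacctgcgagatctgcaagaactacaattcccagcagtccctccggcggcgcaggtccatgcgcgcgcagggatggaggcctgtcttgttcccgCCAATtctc
Pola1: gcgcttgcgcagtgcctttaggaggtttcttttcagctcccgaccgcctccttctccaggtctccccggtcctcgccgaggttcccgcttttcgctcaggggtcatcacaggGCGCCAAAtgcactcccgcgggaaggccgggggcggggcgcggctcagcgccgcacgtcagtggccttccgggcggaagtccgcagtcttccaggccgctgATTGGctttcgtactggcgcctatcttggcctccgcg
Mcm6: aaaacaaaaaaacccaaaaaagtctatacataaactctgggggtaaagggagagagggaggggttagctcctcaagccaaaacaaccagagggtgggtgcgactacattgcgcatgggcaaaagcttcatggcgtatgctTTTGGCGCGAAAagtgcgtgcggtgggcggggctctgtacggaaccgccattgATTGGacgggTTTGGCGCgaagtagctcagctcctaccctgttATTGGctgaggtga
Cdca7: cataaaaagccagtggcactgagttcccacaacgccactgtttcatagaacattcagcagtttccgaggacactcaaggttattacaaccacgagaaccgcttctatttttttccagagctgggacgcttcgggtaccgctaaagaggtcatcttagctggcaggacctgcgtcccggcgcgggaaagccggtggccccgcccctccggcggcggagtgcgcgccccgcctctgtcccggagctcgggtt
Ccne1: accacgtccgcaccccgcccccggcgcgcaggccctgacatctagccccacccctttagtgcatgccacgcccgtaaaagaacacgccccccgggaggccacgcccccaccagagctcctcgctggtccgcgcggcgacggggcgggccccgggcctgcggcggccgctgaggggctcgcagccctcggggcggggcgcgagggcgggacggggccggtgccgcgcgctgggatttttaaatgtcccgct

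With the start counted as 0, the Pola1 run held 1 E2F motif at -138 to -131 and 1 NF-Y motif at -37 to -33. The Mcm6 run held E2F motifs at -110 to -103, at -106 to -99, which overlaps the first, and at -47 to -40, and NF-Y motifs at -57 to -53 and -14 to -10. Prim1 had an NF-Y motif at -9 to -5 and no E2F motif of these letters. Cdca7 and Ccne1 had neither motif in these letters. Other spellings of the E2F site were not searched for, so an unmarked run may still hold one. RefSeq promoters were matched for 31 of the 39 genes, and those of Mcm4, Gins1, Gins2, Gins4, Prim2, Rfc2, Pole and Ccne2 were not analysed here. Over windows of 300 bases that include 50 after the start, 10 of the 31 genes held an E2F motif (32.3%), against 0.929% of 27025 genes. They were Orc1, Cdt1, Mcm3, Mcm5, Mcm6, Mcm7, Pola1, Rfc3, Pole2 and Lig1. The NF-Y motif was in 54.8% of the 31 genes against 41.1% of all, and the CHR motif TTTGAA in 12.9% against 20.2%. The 10 genes with an E2F motif included falls over the 4 subpopulations (Mcm3, Mcm6, Pola1, Rfc3 and Lig1) and genes with differences near 0 such as Cdt1 (-0.02) and Mcm7 (-0.11). These matches are of letters and show no binding.

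Among the 10 genes of origin recognition and licensing, Mcm3 and Mcm6 fell over the 4 subpopulations and none rose. All 10 differences lay below 0, with a median of -0.25. Mcm3, a helicase subunit, was 5.69, 5.96 and 6.59 in nulliparous and 4.76 and 5.03 in parous basal CD49f-high samples. The groups did not overlap, and Mcm3 was 2.28-fold lower in parous cells (-1.19 ± 0.24 SE, adjusted p = 0.00201). In luminal Sca1-negative cells, Mcm3 was 5.47, 5.98 and 6.45 in nulliparous and 5.35, 5.05 and 5.01 in parous samples, again without overlap. Luminal Sca1-positive cells overlapped, with 5.25, 5.41 and 5.27 in nulliparous and 5.52, 4.83 and 4.96 in parous samples. The mean difference in Mcm3 was -0.63 ± 0.11 (SE, adjusted p = 0.000501).

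Mcm6, another helicase subunit, was 6.83 and 7.37 in nulliparous total epithelial samples 1 and 2, higher still in sample 3, and 6.36, 5.93 and 6.27 in the parous ones. The groups did not overlap, and the difference of -1.21, the lowest of the 39 genes in that subpopulation, was not called. Mcm6 in luminal Sca1-negative cells ranged from 7.02 to 8.59 in nulliparous and from 6.87 to 7.55 in parous samples. Mcm6 in basal CD49f-high cells was 6.66, 6.88 and 7.78 in nulliparous and 6.04 and 6.02 in parous samples. Over the 4 subpopulations the difference in Mcm6 was -0.67 ± 0.19 (SE, adjusted p = 0.0298). This call was lost without any of 10 of the 23 samples (adjusted p up to 0.0646) and without nulliparous number 2 or 3 in every subpopulation (adjusted p of 0.111 and 0.278).

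Mcm5 was 6.04, 6.52 and 6.73 in nulliparous and 5.68 and 5.65 in parous basal CD49f-high samples, a 1.70-fold fall (-0.77 ± 0.19 SE, adjusted p = 0.0103). Without parous or nulliparous sample 3 of that subpopulation the adjusted p of Mcm5 was up to 0.0639. The loading factors Cdc6 and Cdt1 had mean differences of -0.09 and -0.02, and the origin recognition subunits Orc1 and Orc6 of -0.27 and -0.38, none called. The helicase subunits Mcm2, Mcm4 and Mcm7 had -0.25, -0.17 and -0.11 and did not pass either. Mcm7 was the gene of the 39 with the highest difference in stromal cells, 0.42, which was not called.

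Of the 6 genes of helicase activation, 0 were called in any parity comparison, and 3 had an unadjusted p under 0.05 in basal CD49f-high cells (limma). Gins1, a subunit of the GINS complex, had the largest difference, -1.27 in basal CD49f-high cells and -0.51 ± 0.19 (SE) over the 4 subpopulations (adjusted p = 0.120). Cdc45, which joins GINS and the Mcm ring in the active helicase, had -0.61 in total epithelial and -0.64 in basal CD49f-high cells. Gins4 had 0.41 in basal CD49f-high and -0.57 in basal CD49f-low cells, and neither was called. Mcm10, Gins2 and Gins3 had mean differences of -0.12, -0.22 and -0.08.

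The sliding clamp and its loader did not move as 1 block. Pcna was the 1 gene that rose over the 4 subpopulations, by 0.30 ± 0.09 (SE, adjusted p = 0.0332), or 1.23-fold. In basal CD49f-low cells, Pcna was 11.25, 11.25 and 11.73 in nulliparous and 11.76, 11.83 and 12.14 in parous samples, without overlap. In luminal Sca1-positive cells, Pcna was 10.96, 10.79 and 10.99 in nulliparous and 11.29, 10.96 and 11.28 in parous samples, and 1 parous value lay within the nulliparous range. The call of Pcna was lost without any of 10 of the 23 samples (adjusted p up to 0.0827) and without nulliparous number 1 or 2 in every subpopulation (adjusted p of 0.172 and 0.117). A second Pcna probe set correlated with the first at Pearson's r of 0.84 over the 35 samples, which share subpopulation and array, and gave 0.26 ± 0.06 (SE, adjusted p = 0.00431). In basal CD49f-low cells the second probe set was called higher in parous cells (0.46 ± 0.11 SE, adjusted p = 0.0341), where the first gave 0.50 and was not called (adjusted p = 0.202). In total epithelial cells the first gave -0.10 and the second 0.23, neither called. RefSeq lists Pcna pseudogenes, and whether the probes also read their transcripts was not tested.

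Rfc3, a subunit of the clamp loader, fell by 0.40 ± 0.12 (SE) over the 4 subpopulations with an adjusted p of 0.0483. That call was lost without any of 17 of the 23 samples (adjusted p up to 0.129). Rfc2, Rfc4 and Rfc5, other subunits of the loader, had mean differences of -0.07, 0.01 and -0.02. Among the polymerases of strand extension, Pole, the catalytic subunit of polymerase epsilon, fell by 0.54 ± 0.12 (SE, adjusted p = 0.00399). In luminal Sca1-negative cells, Pole was 5.11, 5.16 and 5.88 in nulliparous and 4.75, 4.48 and 4.65 in parous samples, without overlap, and all these levels lay under the median of all genes. Its partner Pole2 had -0.32 ± 0.14 (SE, adjusted p = 0.212), and Pold1, the catalytic subunit of polymerase delta, had 0.03 with differences between -0.00 and 0.08 in the 6 subpopulations.

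Lig1, the ligase that joins Okazaki fragments, fell over the 4 subpopulations by 0.44 ± 0.11 (SE, adjusted p = 0.0110). Lig1 in basal CD49f-high cells was 6.69, 6.89 and 7.27 in nulliparous and 6.09 and 6.23 in parous samples, without overlap (-0.79 ± 0.23 SE, adjusted p = 0.0306). The call in basal CD49f-high cells was lost without any sample of that subpopulation other than nulliparous sample 1 (adjusted p up to 0.158). Fen1, the flap nuclease of the same step, had a mean difference of -0.10, and the single-strand binding subunit Rpa2 had -0.14, neither called.

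Of the 4 genes of deoxynucleotide supply, Rrm1, Rrm2 and Tyms fell over the 4 subpopulations. Rrm1, the large subunit of ribonucleotide reductase, was 7.83, 7.93 and 8.73 in nulliparous and 6.93 and 7.19 in parous basal CD49f-high samples. It was 2.14-fold lower in parous cells (-1.10 ± 0.29 SE, adjusted p = 0.0146). Without parous sample 2 or nulliparous sample 3 of that subpopulation the adjusted p of Rrm1 was up to 0.113. Its mean difference over the 4 subpopulations was -0.56 ± 0.13 (SE, adjusted p = 0.00877). In luminal Sca1-negative cells, Rrm1 was 7.02, 7.67 and 8.24 in nulliparous and 6.96, 7.05 and 6.93 in parous samples, so that nulliparous sample 1 lay among the parous ones.

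Rrm2, the small subunit, which is made in S phase, was 6.29, 7.01 and 7.24 in nulliparous and 5.83, 6.20 and 6.18 in parous total epithelial samples. These groups did not overlap, and the difference of -0.77 was not called. In basal CD49f-low cells, Rrm2 was 6.57, 6.98 and 7.47 in nulliparous and 6.29, 6.26 and 6.84 in parous samples, which overlapped. Rrm2 in basal CD49f-high cells was 6.63, 7.09 and 7.63 in nulliparous and 6.44 and 6.48 in parous samples. Its mean difference was -0.60 ± 0.16 (SE, adjusted p = 0.0173). Rrm2 was highest in nulliparous sample 3 in all 5 epithelial subpopulations.

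Tyms, which makes thymidylate, lay lower in parous than in nulliparous samples without overlap in stromal, basal CD49f-low and basal CD49f-high cells. In stromal cells, Tyms was 7.05, 7.02 and 7.12 in nulliparous and 6.50, 6.08 and 6.66 in parous samples, a difference of -0.65 that was not called. In basal CD49f-low cells, Tyms was 7.31, 7.03 and 7.55 in nulliparous and 6.91, 5.73 and 6.38 in parous samples. Luminal Sca1-positive cells gave a difference in Tyms of 0.07. Its mean difference over the 4 subpopulations was -0.64 ± 0.17 (SE, adjusted p = 0.0226). The adjusted p became 0.0519 without parous basal CD49f-high sample 3.

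Tk1, the salvage enzyme thymidine kinase, had a mean difference of 0.13 ± 0.11 (SE, adjusted p = 0.620). A second Tk1 probe set gave -0.21 ± 0.19 (SE), and the 2 probe sets correlated at Pearson's r of -0.13 over the 35 samples, so values of Tk1 are uncertain. The E cyclins Ccne1 and Ccne2, which drive cells into S phase, had mean differences of 0.02 ± 0.08 and 0.09 ± 0.19 (SE), neither called. Chaf1b, a subunit of chromatin assembly factor 1, fell by 0.39 ± 0.10 (SE, adjusted p = 0.0124). In total epithelial cells, Chaf1b was 5.18, 5.59 and 5.59 in nulliparous and 4.77, 5.05 and 4.57 in parous samples, without overlap. Cdca7, a cell division cycle associated gene, had 0.64 in basal CD49f-high and -0.41 in basal CD49f-low cells, and neither was called.

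Other genes of the same pathways were followed for comparison. Of 35 other replication factors measured, 8 fell over the 4 subpopulations, Pole4 rose by 0.33, and the median was -0.11. Of all genes, 3.49% were called lower and 2.72% higher in that comparison. Uhrf1, which couples DNA methylation to replication, fell by 0.70 ± 0.16 (SE, adjusted p = 0.00534), and Rpa3, the smallest subunit of the single-strand binding complex, fell by 0.73 ± 0.15 (SE, adjusted p = 0.00182). Ticrr, which helps to fire origins, fell by 0.44, and Dut, which keeps uracil out of DNA, fell by 0.47. In basal CD49f-high cells 2 of the 35 fell, Wdhd1 by 0.67 and Ticrr by 0.83, and Pole4 rose by 0.67. Of all genes, 5.05% were called lower and 4.01% higher in those cells. Among 13 activators of the G1/S transition, Ccna2 and Cdk4 fell over the 4 subpopulations by 0.69 and 0.47 and Myc rose by 0.29. Among 11 inhibitors, the retinoblastoma family genes Rb1 and Rbl2 rose by 0.50 and 0.29, and the repressor E2f8 fell by 1.30 ± 0.24 (SE, adjusted p = 0.000759). Of 29 mitosis genes measured, 23 fell over the 4 subpopulations and none rose, with a median of -0.87 against -0.24 for the 39 replication genes. Anln, Top2a, Bub1 and Kif11, which act in chromosome separation and cell division, were among them, and Top2a fell by 1.86 and Bub1 by 1.55. In basal CD49f-high cells 18 of the 29 fell, with a median of -1.49, and E2f8 and E2f3 fell by 2.29 and 1.21.

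Some markers of cell types were also called between parous and nulliparous basal CD49f-high cells, where 9.06% of all genes were called. Apart from the basal and myoepithelial list, no list had more than 1 call. Of 10 basal and myoepithelial markers, Myh11, Cnn1 and Oxtr were higher in parous cells, and their mean level per sample was 9.64 to 9.97 in nulliparous and 10.25 to 10.32 in parous samples. Of 10 fibroblast markers, Fbln1 was lower, with list means of 6.45 to 6.90 and 6.33 to 6.43. Emcn was the 1 of 10 endothelial markers that was lower (means of 5.62 to 6.52 and 5.32 to 5.77), and Spint2 the 1 of 10 luminal markers called. The luminal list as a whole leaned the other way, with 2 of 10 differences below 0 and a median of 0.38, and list means of 7.83 to 8.38 and 8.26 to 8.34. Cd68, of 11 macrophage and dendritic markers, and Lep, of 6 adipocyte markers, were higher, with list means of 5.46 to 6.28 and 5.50 to 5.79 in nulliparous and 5.90 to 6.43 and 5.84 to 6.41 in parous samples. None of the 8 lymphocyte, 3 erythroid and 6 skeletal muscle markers measured was called there. Over the 4 subpopulations, 4 of 10 basal markers (Krt5, Krt14, Myh11 and Cnn1) were higher in parous cells, by 0.39, 0.48, 0.48 and 0.60. Their list median was 0.28, with 1 difference below 0. Cd68, 1 of 11, and Lep, 1 of 6, were higher by 0.44 and 0.84. Their list medians were 0.10 and 0.03, with 4 and 2 differences below 0. Of 10 fibroblast markers, Dcn and Fbln1 were lower, with -0.88 and -0.45, and 9 differences lay below 0 (median -0.15). Of all genes, 2.72% were called higher and 3.49% lower there. The part of these cell type markers in the differences of the replication genes was not tested.

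Between sorted subpopulations, averaged over history, replication genes differed in both directions. Basal cells, against luminal cells, were higher in 10 and lower in 5 of the 39 genes. Of all genes 35% were called, 15.5% higher and 19.5% lower, so the total of called members lay near the background. By direction, more members were higher than lower, while more of all genes were lower. Pole2 had the largest rise, 1.09 ± 0.14 (SE, adjusted p = 1.85e-07), followed by Cdca7 with 0.99 ± 0.13 and Mcm4 with 0.84 ± 0.11. Pole2 was 4.72, 5.25 and 6.13 in nulliparous luminal Sca1-negative samples and 6.30, 7.27 and 7.02 in nulliparous basal CD49f-low samples, which did not overlap. Against the other basal subpopulation, parous values of Pole2 overlapped, at 5.35, 5.61 and 4.94 in luminal Sca1-negative and 5.31 and 6.04 in basal CD49f-high samples. The basal cells differ between these pairs, so the pairs do not compare the histories. Rrm1, Rpa2, Rrm2, Ccne1, Pola1, Rfc4 and Rfc3 were higher in basal cells by 0.74, 0.53, 0.53, 0.47, 0.42, 0.37 and 0.34. Mcm6 was lower in basal cells by 0.86 ± 0.19 on the log2 scale (-0.86, adjusted p = 0.000545), so that the helicase subunits Mcm4 and Mcm6 differed in opposite directions. Tk1, Lig1, Cdc6 and Gins2 were also lower, with -0.71, -0.42, -0.35 and -0.32. The second Tk1 probe set gave -0.19, which was not called, and a second Pcna probe set was called higher by 0.32 where the one used here gave 0.21 (adjusted p = 0.0539). Rfc3 lost this call without any of 7 of the 23 samples (adjusted p up to 0.103), and Rfc4 without parous basal CD49f-high sample 3 (adjusted p = 0.107).

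Within luminal cells, Pola1, Pcna and Mcm7 were lower in the Sca1-positive than in the Sca1-negative subpopulation, 3 of 39 genes where 16.1% of all genes were called and 7.11% called lower. Pola1 was 6.21, 6.18 and 6.80 in nulliparous Sca1-positive and 7.17, 7.69 and 7.96 in nulliparous Sca1-negative samples, without overlap. In parous samples Pola1 was 6.32, 5.95 and 5.57 in Sca1-positive and 7.03, 6.35 and 6.63 in Sca1-negative cells, where the highest Sca1-positive value lay just below the lowest Sca1-negative one. The difference in Pola1 was -0.97 ± 0.19 (SE, adjusted p = 0.000280), or 1.95-fold lower. Pcna differed by -0.53 ± 0.12 (SE, adjusted p = 0.00135), and its second probe set by -0.31 (adjusted p = 0.00480). Mcm7 differed by -0.43 ± 0.14 (SE, adjusted p = 0.0333), a call that was lost without any of 9 of the 12 samples (adjusted p up to 0.114).

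Between the basal subpopulations, Cdca7 and Gins4 were higher in CD49f-high than in CD49f-low cells, 2 of 39 genes where 3.54% of all genes were called and 1.05% called higher. Cdca7 was 6.62, 6.94 and 6.24 in nulliparous and 7.81 and 6.66 in parous CD49f-high samples. In CD49f-low cells, Cdca7 was 6.20, 5.90 and 6.17 in nulliparous and 5.86, 6.10 and 5.10 in parous samples, so that all 5 CD49f-high values lay above all 6 CD49f-low values. The difference in Cdca7 was 1.03 ± 0.19 (SE, adjusted p = 0.00288), or 2.04-fold, and the call held without any single sample. Gins4 was higher by 0.71 ± 0.19 (SE, adjusted p = 0.0349), a call that was lost without any of 7 of the 11 samples (adjusted p up to 0.203). In a fit of the basal samples alone neither was called, with an adjusted p of 0.146 for Cdca7. CD49f-high samples came from fewer cells than CD49f-low samples, and the part of this in the difference was not tested.

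Stromal cells had lower levels of 9 of the 39 genes than total epithelial cells and higher levels of none, where 29.2% of all genes were called and 15.6% called lower. The 9 genes were Prim1, Mcm6, Rfc3, Gins2, Rfc4, Cdca7, Rfc2, Mcm4 and Mcm7, with differences from -1.29 for Prim1 to -0.37 for Mcm7. Prim1 was 4.91, 6.03 and 5.50 in nulliparous and 5.73, 5.12 and 4.72 in parous stromal samples, all but 1 below the lowest total epithelial value of 5.86. Rfc3 differed by -0.88 ± 0.17 (SE, adjusted p = 0.000117), and the adjusted p of Mcm6 was 0.00373. Mcm4 lost its call without parous stromal sample 3 or parous total epithelial sample 2 (adjusted p up to 0.0565), and Mcm7 without any of 8 of the 12 samples (adjusted p up to 0.146). Rrm1 was not lower in stroma, with a difference of 0.44 that was not called.

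**Figure D4:**
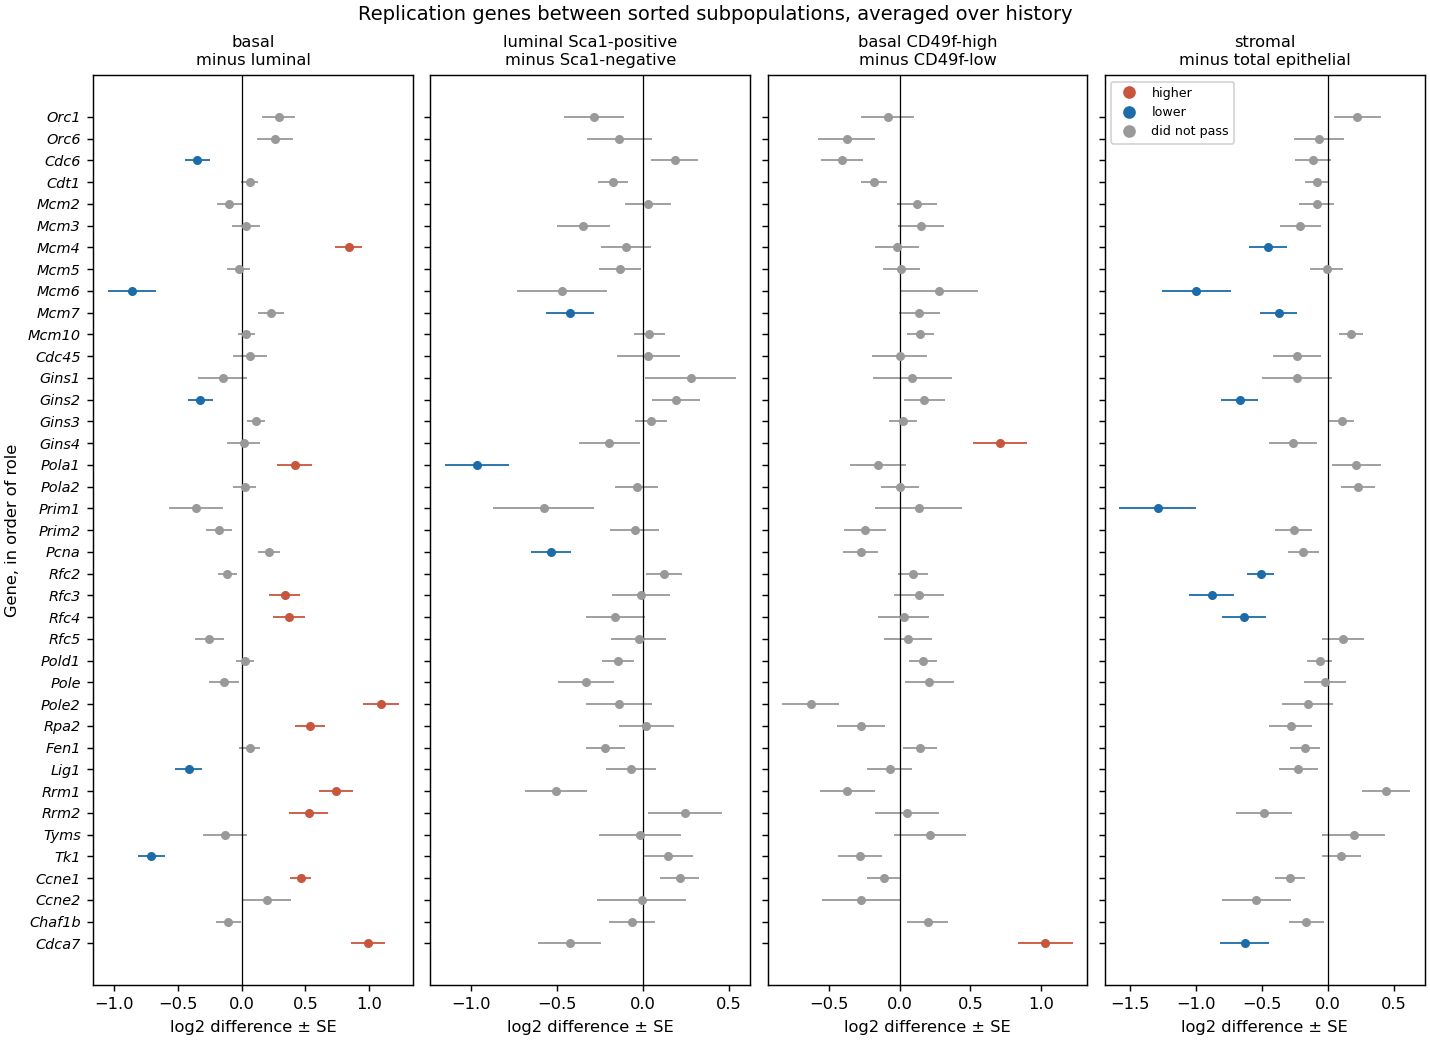
Log2 differences between sorted subpopulations for the 39 genes (rows), averaged over history, with the SE as bars. Red and blue points were called higher and lower in the first-named cells and grey points did not pass: 15 genes were called between basal and luminal cells, 3 within luminal cells, 2 within basal cells and 9 between stromal and total epithelial cells.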

How the data were processed

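Per the labels, RNA of 2000 or 10000 sorted cells was amplified and run as biotin-labelled cDNA on arrays. The authors deposited 1 log2 value per probe set and array, from 1.74 to 13.3, with array medians of 5.81 to 5.92. Per the submitters' processing notes the affy software was used; its version, the normalization and the background correction were not given in the sources used here. All 35 columns were matched to samples, and groups were taken from the labels.

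Of 34760 probe sets, 21640 had 1 gene symbol in GEO's platform annotation, 1321 several and 11799 none; only the first were used. Where several probe sets named a gene (954 genes), the brightest on average was kept, leaving 19937 genes. Of the 39 genes, Pcna and Tk1 had 2.

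With R 4.3.3 and limma 3.58.1, 12 group means were fitted over all 35 samples (lmFit, eBayes with trend = TRUE), without covariates. Contrasts gave parity effects in 6 subpopulations, their mean over 4, their differences, and differences between subpopulations, with Benjamini-Hochberg adjustment over all genes and calls under 0.05. The fit was tested on simulated data.

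The 39 members and all gene lists were chosen with earlier results of these data known. Named genes were a panel of 25 of the 39, called members (up to 12 per direction), the largest rise and fall in each comparison and up to 4 called genes per direction of each other list. Of the promoters, that of Mcm6 was chosen after its values were seen. The labels call the samples of a group biological replicates and do not say whether equal numbers share mice across groups; if they do, samples of different subpopulations are not independent. Alternatives were other spread priors, array weights, quantile normalization, dim probe sets left out, means of probe sets, the number as a fixed or random term, fewer samples, and, added after seeing the data, pool means. Raw array files were not analysed here.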

Additional observations from a re-analysis of the deposited data

Results flagged for a closer look

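Prim2, the large primase subunit, was the 1 replication gene of 39 whose parity difference was called as different between the 2 basal subpopulations. Of all genes, 2.27% were called in the same test, so a single call among the replication genes lies near the background. The parity difference in basal CD49f-high cells minus that in basal CD49f-low cells was -1.09 ± 0.30 (SE, adjusted p = 0.0485, limma). Both parous basal CD49f-high samples, at 5.28 and 5.45, lay below all other Prim2 values. The call of Prim2 between the basal subpopulations was lost without any of 9 of the 11 samples (adjusted p up to 0.116). In the test over the 6 subpopulations the adjusted p of Prim2 was 0.0861. The adjusted p was 0.157 with array weights, 0.187 in a fit of the basal samples alone, and 0.0745 and 0.163 without nulliparous number 1 or 2.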

How the results depend on the processing

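The 50 single-gene results called for the 39 genes kept their direction under every alternative run for them, and all 50 stayed called with the replicate block, without the spread trend and with the mean of probe sets. Of the 50, 41 stayed called with array weights, 48 with quantile normalization, 48 with the pool as a random effect, and 38 in fits of only the samples compared. Without nulliparous number 1, 2 or 3 in every subpopulation, 45, 35 and 38 stayed called. With dim probe sets left out, 48 of 48 did, and in the fit of pool means over 3 subpopulations 0 of 13 did. The 50 were picked by their calls in the main fit, and the alternatives refit the same values. The kept direction is therefore no separate support.

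With array weights, the genes called for parity were 1 in total epithelial, 4 in luminal Sca1-negative and 4 in basal CD49f-high cells, 8 for luminal Sca1-positive minus Sca1-negative, 1 for basal CD49f-high minus CD49f-low, and 0 for the difference of their parity effects. In fits of only the samples compared, 0 were called in basal CD49f-high cells, 0 for CD49f-high minus CD49f-low and 0 for that difference. Without nulliparous number 1, 3 were called in total epithelial, 4 in luminal Sca1-negative and 15 in basal CD49f-high cells, 6 between the luminal subpopulations, 0 for the difference of basal parity effects and 2 over the 6 subpopulations. Without number 2, 0 were called for the difference of basal parity effects. Without number 3, 8 were called over the 4 subpopulations and 1 for CD49f-high minus CD49f-low. In the fit of pool means over 3 subpopulations, without basal CD49f-high cells and chosen after seeing the data, 0 were called. Shares of all genes are not given beside the counts in this paragraph, so they are not read against a background. The cause of these changes was not tested.

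With the replicate block, 12 genes were called in basal CD49f-high cells, 1 in luminal Sca1-negative and 1 in basal CD49f-low cells, and 16 over the 4 subpopulations. With the pool as a random effect, 1 was called in luminal Sca1-negative cells. Shares of all genes under these settings are not given here. Deviations of nulliparous samples of the same number correlated at 0.03 to 0.34, over 0.1 in 28 of 45 pairs, against at most 0.07 and 0 of 90 for other numbers. Among parous samples 15 of 40 same-number pairs were over 0.1, against 0 of 80, and 35 of 35 samples lay closest to their own number within a history. The labels do not state a pairing, and not every same-number pair was over 0.1, so it is a hint from the data. Parous and nulliparous samples came from different mice. Even so, 4 of 17 same-number pairs across the histories of 1 subpopulation were over 0.1, against 0 of 34 for other numbers. Of 35 samples, 25 lay closest to their own number in the other history. What the number marks was not tested.

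Leaving out 1 sample at a time gave 9 to 13 calls over the 4 subpopulations, 4 to 11 in basal CD49f-high and 0 to 2 in luminal Sca1-negative cells (2 without its nulliparous sample 1). It gave 0 to 0 in stromal, total epithelial, luminal Sca1-positive and basal CD49f-low cells, over the 6 subpopulations and for the luminal parity difference. For the basal parity difference it gave 0 to 2, with 2 without parous CD49f-high sample 3 or nulliparous CD49f-high sample 1. Between subpopulations it gave 14 to 18 for basal minus luminal, 8 to 12 for stroma, 2 to 5 for the luminal pair (5 without nulliparous Sca1-negative sample 1) and 1 to 3 for the basal pair. Shares of all genes are not given beside these ranges, so they are not read against a background. The number of arrays, at most 3 per group, limits the precision.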
